A study of Mus musculus with 6 samples.

Results

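The subunits of the oxidative phosphorylation system were followed in kidney proximal tubules of mice given aristolochic acid I (AA) or its solvent dimethyl sulfoxide (DMSO). Members were chosen by gene symbol alone: the protein-coding genes of the mitochondrial genome and the nuclear genes named as subunits of complexes I to V. The rule found 98 of the 32544 genes in the table, 13 of the mitochondrial genome and 85 nuclear. Complex I held 44 of them, complex II 4, complex III 10, complex IV 21 and complex V 19, and 6 names marked as pseudogenes were left out. The rule goes by name, so it also took Atp5sl, an older symbol of an assembly factor, and Ndufa4 and Ndufa4l2, counted here with complex I although their products are now placed in complex IV.

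Both groups were C57Bl/6 mice that the labels call control animals, with no altered allele stated. Tubules were taken 24 h after 1 injection at a stated 3 mg/kg of AA or of DMSO. The tissue was hand-dissected S2 and S3 tubule, downstream of the first proximal segment, with a few tubules pooled per kidney before RNA extraction. Each group had 3 libraries of polyadenylated RNA, called replicates 1 to 3. The labels do not say whether they came from separate animals, so p-values measure only the spread between these libraries. In such bulk samples fewer cells of a type and less RNA per cell cannot be told apart.

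Complexes I to IV pass electrons from NADH and succinate to oxygen and pump protons out of the mitochondrial matrix, except complex II, and complex V uses the returning protons to make ATP. Complexes I, III, IV and V combine subunits made from the mitochondrial genome with subunits imported from the cytosol, whereas complex II is wholly nuclear. The mitochondrial genes are read as long transcripts from either strand of the circular genome and are then cut into single messages, and proximal tubule cells, which reabsorb most of the filtered solutes, depend on oxidative phosphorylation for ATP.

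Library depth ran from 13304877 to 31136251 reads, and levels are given as CPM, the reads of a gene scaled to the same total in each library. Markers of the proximal tubule, such as Lrp2 and Slc34a1, were read in all libraries: the 15 markers listed added up to 42672 to 59043 CPM in DMSO and 35939 to 49900 CPM in AA. Of the 15, 5 were called lower and 1 higher, and 8 did not overlap between groups. Over all tested genes, 8.66% were called lower and 22.3% higher, and 46.4% did not overlap. These shares apply to all marker counts in this paragraph. Lrp2, the endocytic receptor megalin, was at 8476, 7120 and 6251 CPM in DMSO and 3440, 2349 and 2323 CPM in AA. Kap alone, at 19223 to 33079 CPM, made up much of the sum. The 7 markers of segment S3 added up to 5467 to 8223 CPM in DMSO and 3530 to 4452 CPM in AA, with 4 of 7 called lower, and the 12 collecting duct markers to 26.4 to 44.0 and 65.3 to 128 CPM, with 4 of 12 called higher. The 8 markers of the thick ascending limb, a segment rich in mitochondria, added up to 317 to 725 CPM in DMSO and to 429 to 1596 CPM in AA, with the highest value in AA replicate 2. Endothelial markers (10) added up to 273 to 410 and 419 to 495 CPM, and those of fibroblasts and smooth muscle (9) to 95.2 to 143 and 181 to 212 CPM, with 3 and 4 called higher. No marker on these 6 lists was without reads in all libraries. The part of these other cells in the results below was not tested.

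The 13 mitochondrial genes together took 8.65%, 4.005% and 10.1% of all reads in DMSO replicates 1, 2 and 3. In AA replicates 1, 2 and 3 they took 8.72%, 5.60% and 4.82%. The groups overlapped widely, with means of 7.58% ± 3.17 in DMSO and 6.38% ± 2.06 in AA (SD, n = 3 each), and the lowest value of all was that of DMSO replicate 2. The 85 nuclear genes together came to 12368, 11532 and 9921 CPM in DMSO and to 10922, 12582 and 10973 CPM in AA, again with overlap. Their means were 11274 ± 1244 and 11492 ± 944 CPM (SD, n = 3 each). Mitochondrial reads thus exceeded nuclear subunit reads by a ratio of 6.99, 3.47 and 10.2 in DMSO and of 7.98, 4.45 and 4.39 in AA. The mean log2 ratio was lower in AA by 0.22, less than its pooled SD of 0.66, and without DMSO replicate 3 it was higher by 0.13.

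**Figure D1:**
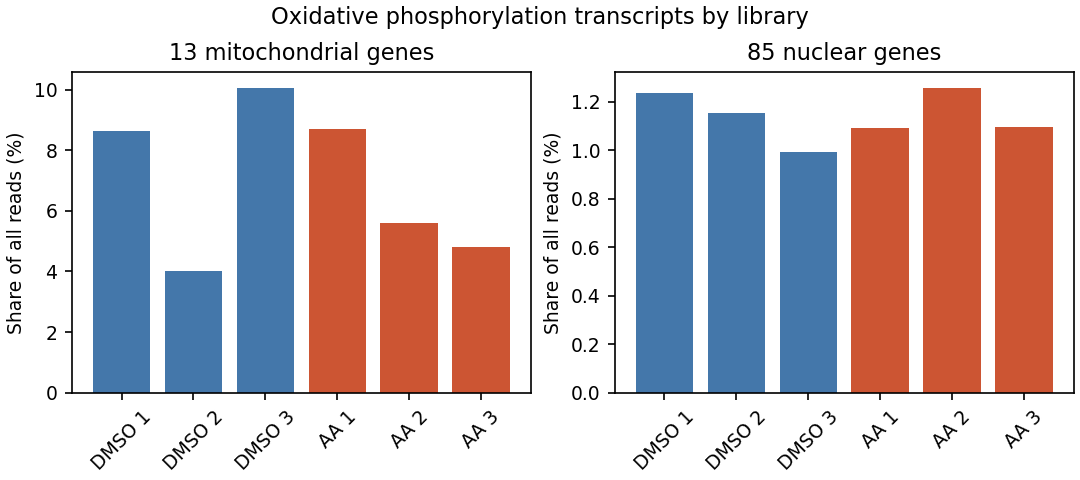
Share of all reads (%, vertical axes, which differ in scale) taken by the 13 mitochondrial genes (left) and the 85 nuclear genes (right), with 1 bar per library, DMSO blue and AA orange. The mitochondrial share ran from 4.005% to 10.1% within DMSO alone, a range that holds all 3 AA libraries, while the nuclear share stayed between 0.992% and 1.26%.

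Nuclear subunit genes as a group stayed close to their DMSO levels. Of the 85, 80 reached the level set for testing, which was 1 CPM in at least 3 libraries. In limma's moderated test, adjusted over all 14311 tested genes, 1 nuclear gene was higher in AA, 2 were lower and 77 were not called at 0.05. That is 3.75% called, whereas 30.9% of all tested genes were called, 22.3% higher and 8.66% lower. The median log2 fold change of the 80 genes was 0.00, with 40 above and 40 below 0, but it was -0.12 after quantile normalization, -0.21 with TMM factors and -0.26 with library medians equalised. The median of all tested genes as deposited was 0.21, and relative to it the nuclear median was -0.20. The interquartile range of the 80 values was 0.24 on the log2 scale, against 0.71 for all tested genes.

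For 78 of the 80 nuclear genes (97.5%) the 95% confidence interval of the fold change lay within 2-fold in either direction, as it did for 60.2% of all tested genes. The exceptions were the weakly expressed Cox6b2 and Cox7a1. AA and DMSO libraries did not overlap for 6 of the 80 genes, 4 higher and 2 lower in AA, while 46.4% of all tested genes showed no overlap.

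**Figure D2:**
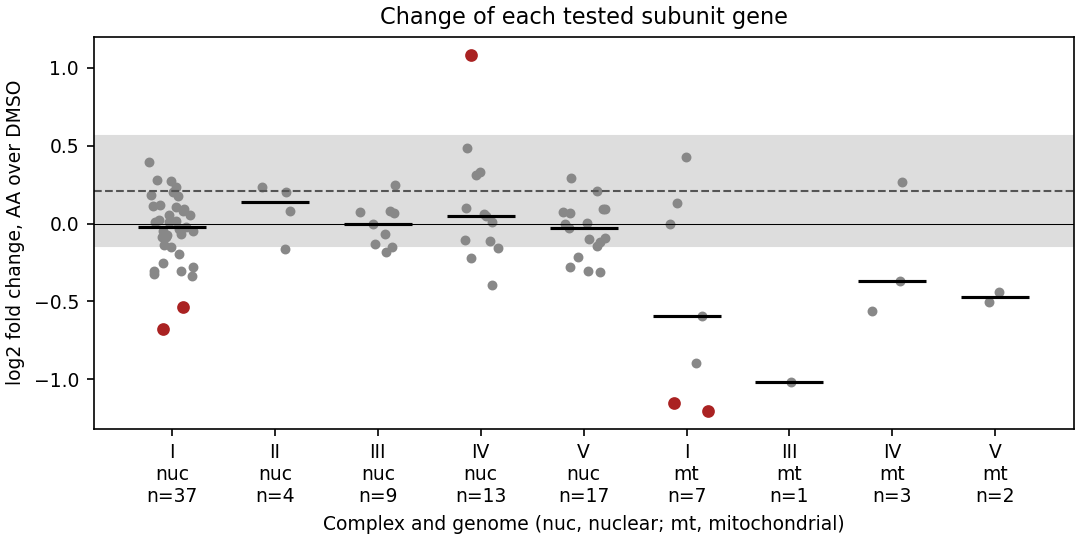
Log2 fold change of AA over DMSO (vertical axis) for each of the 93 tested subunit genes, by complex and genome (horizontal axis). Red points are called genes, black bars medians of each set, the dashed line the median of all tested genes (0.21) and the grey band their interquartile range. Nuclear medians lie between -0.03 and 0.14 as deposited (all nuclear genes together -0.21 with TMM factors), and 9 of the 13 mitochondrial genes lie below 0.

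Complex I, the NADH dehydrogenase, had 37 nuclear members, all tested, with a median log2 fold change of -0.02 and 2 called genes, both lower. Ndufv3, which encodes an accessory subunit of the NADH-oxidising arm, had 105.7, 123.9 and 90.5 CPM in DMSO and 66.9, 64.7 and 66.3 CPM in AA. All AA values lay below all DMSO values and close to each other. Ndufv3 fell by 0.67 on the log2 scale (SE 0.14, limma adjusted p = 0.00581). Without a filter on low values its adjusted p was 0.0601. A term that sets DMSO replicates 1 and 2 apart from the other libraries, called the library-set term below, leaves AA compared with DMSO replicate 3 alone, a control of 1 library, and gave an adjusted p of 0.165. The gene lies on chromosome 17 from 31520115 to 31531331, plus strand, in the GENCODE annotation of GRCm38.

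Ndufb10, an accessory subunit of the membrane arm, had 54.0, 59.9 and 42.8 CPM in DMSO and 33.5, 41.6 and 31.6 CPM in AA. The groups did not overlap, but DMSO replicate 3 was near AA replicate 2. It fell by 0.54 (SE 0.17, limma adjusted p = 0.0359), and leaving out AA replicate 1, AA replicate 3, DMSO replicate 1 or DMSO replicate 2 gave adjusted p of 0.0940, 0.123, 0.0910 and 0.103. Ndufb10 also lies on chromosome 17, at 24722060 to 24724478, minus strand.

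Core subunits of the electron path of complex I were not called. Ndufs1, which holds iron-sulfur clusters and had the highest mean CPM of the nuclear genes of the complex in DMSO, was at 286, 269.9 and 243 CPM in DMSO and 218, 266 and 237 CPM in AA, so that the groups overlapped. Ndufv1, which binds NADH and the flavin, was at 241, 257 and 215 CPM against 239.7, 244 and 240.3 CPM, a log2 difference of 0.02 with a 95% confidence interval from -0.25 to 0.30. Ndufs3, Ndufs7, Ndufs8 and Ndufv2, further core subunits, had log2 fold changes of 0.19, -0.20, -0.34 and 0.17, and none was called. The most positive value among the 37 was that of Ndufb6, a membrane arm subunit (log2 fold change 0.40, limma adjusted p = 0.187).

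Complex II, succinate dehydrogenase, and complex III, the cytochrome bc1 complex, had no called nuclear gene. With complex V they made up 30 tested nuclear genes, of which limma and voom, which weights the recovered reads by their precision, called 0, and 0 had an unadjusted p under 0.05. Sdha, the flavoprotein that oxidises succinate, was at 613, 547 and 471 CPM in DMSO and 627, 679.5 and 566 CPM in AA. Sdhc, a membrane anchor of complex II, was at 203, 183 and 217 CPM against 226, 256 and 228 CPM. Sdhc was the 1 nuclear member of complexes II, III and V without overlap between groups, and its log2 difference was 0.24 (SE 0.13, limma adjusted p = 0.185). Sdhb, with the iron-sulfur clusters, and Sdhd, the other anchor, differed by -0.16 and 0.08.

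Of the complex III genes, Uqcrfs1, the Rieske iron-sulfur protein, was at 199, 181 and 148 CPM in DMSO and 179, 203 and 171 CPM in AA. Cyc1, cytochrome c1, was at 183, 198 and 142 CPM against 169.9, 179.8 and 147 CPM. Both sets overlapped, and in both genes DMSO replicate 3 was the lowest library. The 9 nuclear genes of complex III ran from a log2 fold change of -0.18 (Uqcr10) to 0.25 (Uqcrc2), with a median of 0.00. The mitochondrial partner of these genes, mt-Cytb, was at -1.02.

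Complex IV, cytochrome c oxidase, swaps several small subunits between tissues. Its tested nuclear genes had an interquartile range of 0.43 on the log2 scale, against 0.26, 0.19, 0.20 and 0.22 in complexes I, II, III and V. Its upper quartile, 0.31, was the value of Cox7a1, with 7 to 83 reads per library, and Cox4i1, Cox7a2l and Cox6b2 lay above it. The wider range thus rests in part on weakly read isoforms. The 1 called gene was Cox6b2, known as the testis form of subunit VIb. It had 1.13, 0.803 and 0.689 CPM in DMSO and 2.78, 3.48 and 2.66 CPM in AA, without overlap. Behind these values stood 11 to 27 reads per DMSO library and 37 to 62 reads per AA library. Cox6b2 rose by 1.09 on the log2 scale (SE 0.26, limma adjusted p = 0.0101), and its share of the summed reads of Cox6b1 and Cox6b2 went from 0.435% to 0.595% in DMSO up to 1.67% to 2.11% in AA. Its adjusted p was 0.0639 with the library-set term (1 control library), 0.0666 with no filter, 0.0533 after quantile normalization and 0.0552 without AA replicate 2. Cox6b1, the widely expressed form, was at 189, 184 and 144 CPM against 129, 178 and 157 CPM and was not called.

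The other tissue-restricted forms were near the limit of detection. Cox8c had 0 reads in all 6 libraries, which allows up to 0.0964 CPM in the deepest and 0.225 CPM in the shallowest of them, counting error only. Cox7b2 had 1 read in all, and Cox4i2, the lung and hypoxia-associated form of subunit IV, made up at most 0.0872% of the summed reads of Cox4i1 and Cox4i2. Cox6a2 and Cox8b, forms of heart and skeletal muscle, made up at most 0.684% and 0.223% of their pairs. Cox7a1, also of heart and skeletal muscle, held 0.925% to 4.25% and was tested but not called. Ndufa4l2, a hypoxia-responsive relative of Ndufa4, stayed at 0.583% to 1.17% of the pair in both groups.

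Cox4i1, the main form of subunit IV, was at 261, 258 and 245 CPM in DMSO and 317, 348 and 296 CPM in AA. These did not overlap, and the log2 fold change of 0.33 (SE 0.13) had a limma adjusted p of 0.0708. Cox7a2l, which takes part in joining complexes III and IV into supercomplexes, was at 56.7, 41.8 and 60.5 CPM against 71.9, 88.3 and 62.5 CPM, also without overlap (log2 fold change 0.48, SE 0.18, limma adjusted p = 0.0625). Cox6a1, Cox7a2 and Cox8a, the main forms of their subunits, differed by -0.22, 0.05 and 0.01. The 13 tested nuclear genes of complex IV had a median of 0.05.

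Complex V, ATP synthase, had the highest nuclear levels. Atp5b, the catalytic beta subunit, was at 2137, 1839 and 1654 CPM in DMSO and 1910, 2171 and 1906 CPM in AA. Atp5a1, the alpha subunit, was at 1505, 1458 and 1369 CPM against 1453, 1556 and 1344 CPM. Both overlapped, with log2 fold changes of 0.09 and 0.01 and 95% confidence intervals from -0.31 to 0.50 and from -0.35 to 0.36. The 17 nuclear genes counted with the complex had a median of -0.03. They ranged from -0.31 for Atp5sl, the assembly factor taken by its name, to 0.29 for Atp5s.

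Per kilobase of the annotated transcript, the nuclear genes of complex I had the lowest median level. Medians over the tested nuclear genes in DMSO were 67.4 CPM per kilobase in complex I, 128 in II, 123 in III, 154 in IV and 125 in V, and in AA they were 60.5, 123, 121, 160.4 and 122. Atp5b was the highest nuclear gene at 979 CPM per kilobase in DMSO. The median of the 13 mitochondrial genes was 3299 CPM per kilobase, with mt-Co1 highest at 15738. These levels depend on the transcript length chosen for each gene.

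The nuclear genes also varied together between libraries of the same group. DMSO replicate 3 was the lowest DMSO library in 65 of 80 tested nuclear members, against 29.5% of all tested genes, and replicate 1 the highest in 47. AA replicate 2 was the highest AA library in 59 of 80, against 40.0% of all tested genes. It also had the highest AA sums of thick ascending limb, collecting duct and endothelial markers. Its sums of proximal tubule, S3, and fibroblast and smooth muscle markers were not the highest. In DMSO the thick ascending limb sum was highest in replicate 2, at 725 CPM against 664 CPM in replicate 1. A link between these sums and the subunit genes was not tested.

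The ring of membrane-embedded c subunits of ATP synthase is made from 3 genes that encode the same mature protein, Atp5g1, Atp5g2 and Atp5g3. Atp5g1 was at 107, 98.8 and 86.3 CPM in DMSO and 74.7, 111.5 and 89.3 CPM in AA, and Atp5g3 at 223, 202 and 159.9 CPM against 159.4, 235 and 158 CPM. Neither was called. Atp5g2 was listed at 21.2, 18.7 and 13.4 CPM in DMSO and 9.996, 17.5 and 15.4 CPM in AA, with overlap. A processed copy on chromosome 7, Gm10175, matches its transcript at 100% over 441 bases and was listed at 65.1, 71.5 and 81.5 CPM in DMSO and 88.3, 99.0 and 84.0 CPM in AA. The copy thus held 75.5% to 89.8% of the reads of the pair, and reads of the matching stretch cannot be told apart. Added together, Atp5g2 and its copies came to 86.3, 90.2 and 94.9 CPM in DMSO and 98.3, 116.5 and 99.4 CPM in AA, without overlap (limma adjusted p = 0.249). The log2 fold change of Atp5g2 went from -0.31 alone to 0.21 with the copies, so its direction is uncertain.

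Copies of this kind, at least 98% identical over 150 bases or more and listed in the table, were found for 18 members, 11 nuclear and 7 mitochondrial. BC002163 held 25.8% to 39.3% of the reads it shared with Ndufs5, a small subunit of complex I, and Gm15920 held up to 22.2% of those shared with Ndufa12, another. Adding copies left the counts of called nuclear and mitochondrial members at 3 and 2. All 7 copies of mitochondrial genes lie on chromosome 1.

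The mitochondrial copy that mattered most was Gm28438, a copy of mt-Nd3. It matches mt-Nd3 at 99.7% over 345 bases with the single substitution T3C, counted from 1 at the 5′ end of mt-Nd3. The first 33 bases of each are shown, 5′ to 3′ from GRCm38, because this is the only base in the matching stretch by which a read can be assigned, and the capital marks it.
mt-Nd3: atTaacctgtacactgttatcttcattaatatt
Gm28438: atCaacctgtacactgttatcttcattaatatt

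The copy held 51.7% and 71.8% of the reads of the pair in DMSO replicates 1 and 2, but 2.62% in DMSO replicate 3 and 2.87%, 2.09% and 1.07% in AA. As listed, mt-Nd3, a subunit of the complex I membrane arm, was at 363, 65.4 and 709 CPM in DMSO and 559, 294 and 253 CPM in AA. With the copy it was at 753, 232 and 728 CPM against 576, 300.2 and 256 CPM. Both versions overlapped, and the log2 fold change went from 0.43 to -0.51. A copy of mt-Nd4, Gm28439, matches at 100% over 876 bases and held 17.2%, 11.6% and 0.233% of the reads of its pair in DMSO and 0%, 9.47% and 2.65% in AA. Shares below therefore use mitochondrial genes with their copies added.

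**Figure D3:**
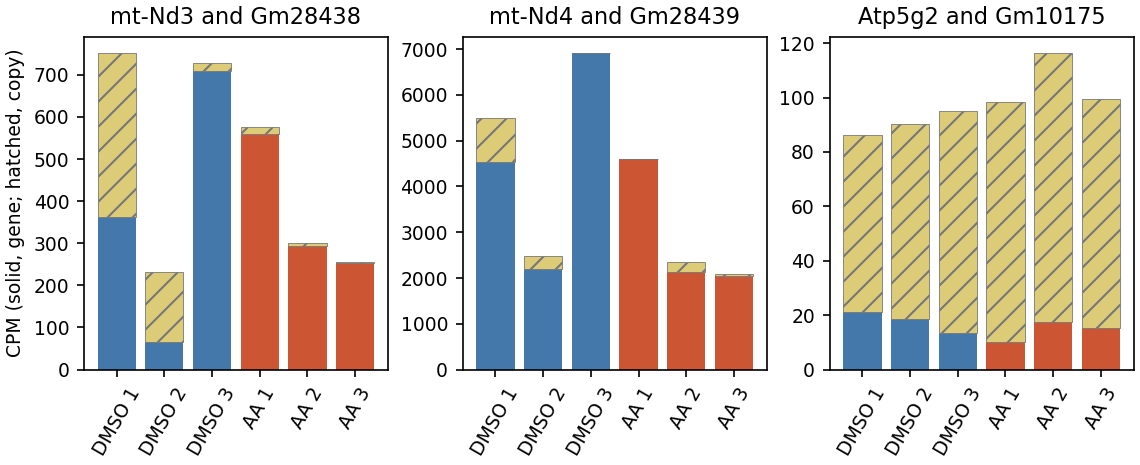
CPM in each library (horizontal axis) of mt-Nd3, mt-Nd4 and Atp5g2 (solid, DMSO blue, AA orange) with the near-identical copy of each stacked on top (hatched). The copy of mt-Nd3 is large in DMSO replicates 1 and 2 only, at 51.7% and 71.8% of the pair, and the copy of Atp5g2 outweighs the gene in all 6 libraries.

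Among the mitochondrial genes with copies added, the log2 fold changes ran from 0.30 (mt-Co1) down to -1.20 (mt-Nd4l), with wide errors. As deposited, limma called 0 of 13 higher and 2 lower (15.4%), while 30.9% of all tested genes were called and 8.66% were called lower. At an unadjusted p under 0.05 there were 0 higher and 4 lower, and voom called 0 higher and 4 lower. Their median log2 fold change was -0.50 and the median SE 0.38, more than the 0.17 of the nuclear genes, and for only 1 of the 13 did the 95% confidence interval lie within 2-fold. The total mitochondrial share itself ranged from 4.005% to 10.1% between libraries, as given above.

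The called genes were both complex I subunits. mt-Nd6, the only protein gene on the other strand, was at 401, 376 and 528 CPM in DMSO and 261, 138 and 198 CPM in AA, without overlap. It fell by 1.15 (SE 0.22, limma adjusted p = 0.00312), and with no filter on low values its adjusted p was 0.109. mt-Nd4l, a small membrane arm subunit, was at 231, 246 and 398 CPM against 215, 91.0 and 93.1 CPM, also without overlap but with AA replicate 1 close to the DMSO values. mt-Nd4l fell by 1.20 (SE 0.31, limma adjusted p = 0.0137). Its adjusted p was 0.237 with no filter, 0.0775 with robust variance, 0.0628 without AA replicate 2 and 0.0522 without AA replicate 3. mt-Nd4, whose start mt-Nd4l overlaps, differed by -0.60 and was not called. How reads were split between these genes was not tested, so a fall particular to mt-Nd4l is uncertain. The message of mt-Nd6 is known in mammals for lacking a long poly(A) tail, so its level in libraries of polyadenylated RNA depends on its capture.

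mt-Cytb, the only mitochondrial subunit of complex III, was at 6306, 2876 and 7909 CPM in DMSO and 3530, 2429 and 2022 CPM in AA. DMSO replicate 2 lay within the AA range, and the log2 fold change of -1.02 (SE 0.36) had a limma adjusted p of 0.0522. mt-Nd5, a proton-pumping subunit of complex I, was at 6033, 3690 and 8207 CPM against 4466, 2436 and 2602 CPM (log2 fold change -0.90, SE 0.33, limma adjusted p = 0.0616). At the other end, mt-Co1, the catalytic core of complex IV, was at 28439, 11776 and 32733 CPM in DMSO and 33020, 26314 and 21952 CPM in AA, and a log2 difference of 0.27. mt-Nd1 and mt-Nd2, membrane arm subunits of complex I, differed by 0.00 and 0.13. mt-Nd4, mt-Co2, mt-Co3, mt-Atp6 and mt-Atp8, of complexes I, IV and V, lay between -0.60 and -0.37 and were not called.

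When each gene was related to all mitochondrial reads of its library, mt-Cytb and mt-Nd5 separated the groups. The share of mt-Cytb was 7.10%, 7.10% and 7.78% in DMSO and 3.98%, 4.21% and 4.12% in AA. The groups lay far apart, and each was narrow. On this scale mt-Cytb fell by 0.84 on the log2 scale (SE 0.18, limma adjusted p = 0.00504). mt-Nd5 had shares of 6.80%, 9.11% and 8.08% against 5.03%, 4.23% and 5.30% and fell by 0.72 (SE 0.20, limma adjusted p = 0.0203).

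The shares of mt-Nd4l and mt-Nd6 fell by 1.03 and 0.97 on the log2 scale (limma adjusted p = 0.0135 and 0.0157). That of mt-Nd4l varied within DMSO, with 0.260%, 0.608% and 0.391%, against 0.242%, 0.158% and 0.190% in AA. mt-Nd4, the gene before mt-Nd5, had shares of 6.18%, 6.12% and 6.81% in DMSO and 5.17%, 4.07% and 4.26% in AA (log2 difference -0.51, limma adjusted p = 0.0572). On this scale 4 of 13 mitochondrial genes were called lower, against 8.72% of all tested genes in the same fit. Genes outside the mitochondrial genome stayed on the scale of all reads there, so the scales differ. Shares of AA and DMSO did not overlap for 8 of the 13 genes, 7 lower and 1 higher in AA, while CPM of 46.4% of all tested genes did not overlap. Besides the 5 genes from mt-Nd4l to mt-Cytb, the lower ones were mt-Co2, with 9.87% to 11.9% in DMSO and 7.63% to 8.91% in AA, and mt-Co3, with 14.1% to 14.4% against 11.6% to 13.5%.

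The higher one was mt-Co1, with 33.1%, 29.1% and 33.05% of mitochondrial reads in DMSO and 39.0%, 48.1% and 46.4% in AA (log2 difference 0.48, limma adjusted p = 0.228). Shares of a fixed total are not independent, and mt-Co1 is the largest of them. With mt-Co1 left out of the total, mt-Cytb and mt-Nd4l stayed called (log2 differences -0.53 and -0.73, limma adjusted p = 0.0491 and 0.0378), whereas mt-Nd5 and mt-Nd6 did not (-0.42 and -0.67, adjusted p = 0.129 and 0.0590). This total moved the median over the 13 genes from -0.33 to -0.03. With it mt-Nd1, mt-Nd2 and mt-Co1 were higher by 0.48, 0.61 and 0.78 but were not called (limma adjusted p = 0.102, 0.0642 and 0.0767). The size of each change thus depends on the total chosen.

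The log2 changes became more negative along the order of the genes. The 12 genes read from one strand run from mt-Nd1 at position 2751 to mt-Cytb, which ends at 15288. Across these 12 genes, log2 change and start position had a Spearman correlation of -0.67 as deposited and of -0.84 with copies added. The scale of shares shifts all genes by nearly the same amount, so its equal value was fixed in advance and adds no support. These are correlations across genes of the same 6 libraries and not across independent replicates. Leaving out mt-Atp8 and mt-Nd4l, whose reads are uncertain, it was -0.87 with copies added.

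The share in each AA library over the DMSO mean gave correlations of -0.83, -0.78 and -0.85 with position, which are not independent because all have the same denominator. Each DMSO library against the other DMSO libraries gave -0.57, 0.10 and 0.59, so the sign differed within DMSO, and DMSO replicate 1 had that of the AA libraries. The ratio of mt-Cytb, last in the order, to mt-Nd1, first in it, was 0.941, 1.01 and 1.30 in DMSO and 0.390, 0.646 and 0.594 in AA. Its ratio to mt-Co1 was 0.214, 0.244 and 0.235 against 0.102, 0.0877 and 0.0887. Neither ratio overlapped between groups. Both restate values given above, and mt-Co1 had the most positive change of all, so they add no separate support for a trend with position. The ratio of the neighbours mt-Nd2 and mt-Nd1 overlapped, with 0.513, 0.507 and 0.625 against 0.684, 0.477 and 0.657.

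**Figure D4:**
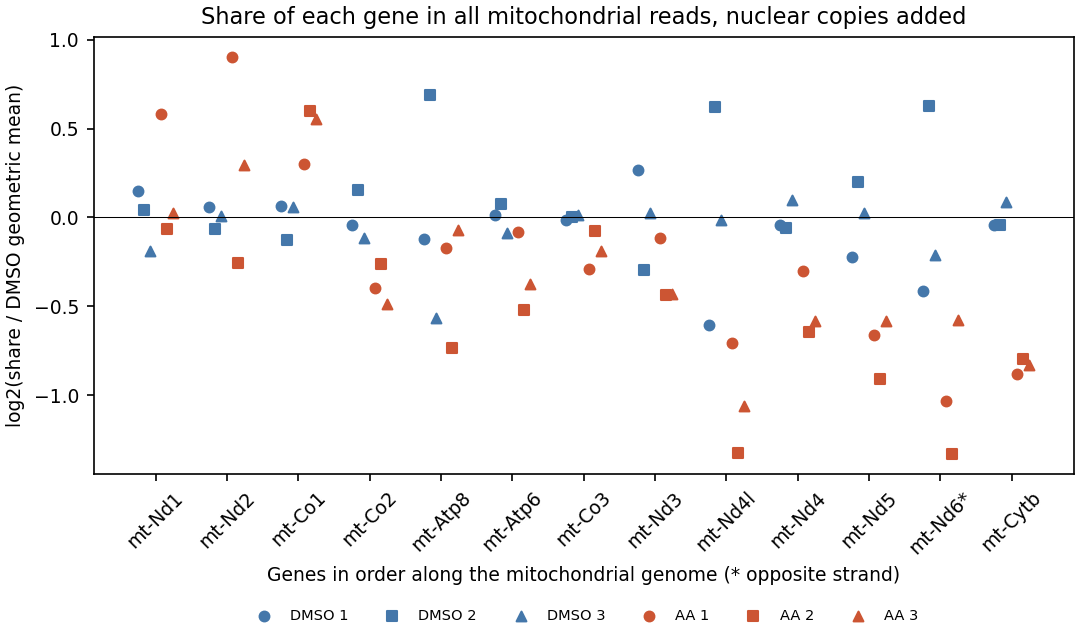
Share of each mitochondrial gene in all mitochondrial reads, as log2 of the share over the geometric mean of the DMSO libraries (vertical axis), with the genes in their order along the genome (horizontal axis) and 1 point per library. AA points lie wholly below DMSO for mt-Co2, mt-Co3 and the genes from mt-Nd4l on, with mt-Cytb at 3.98% to 4.21% in AA and 7.10% to 7.78% in DMSO, while mt-Co1 is above DMSO and mt-Nd1 and mt-Nd2 overlap with it.

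Some mitochondrial genes share bases, and the table splits their reads. mt-Atp8 and mt-Atp6, a pair of complex V subunits made from 1 message, overlap by 43 bases at chrM:7927-7969, plus strand, GRCm38. The shared stretch is shown with the start codon of mt-Atp6 in capitals, since it lies inside mt-Atp8.
mt-Atp8 and mt-Atp6: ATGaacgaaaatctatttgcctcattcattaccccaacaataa

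mt-Atp8 was listed at 4.38 to 10.3 CPM and mt-Atp6 at 3507 to 8837 CPM, although both lie on the same message. The level of mt-Atp8, and that of mt-Nd4l, which overlaps mt-Nd4 by 7 bases, are therefore uncertain. mt-Nd6 overlaps the end of mt-Nd5 on the opposite strand, and the strand setting of the counting is not given in the sources used here.

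Genes that build the complexes, maintain mitochondrial DNA and RNA or regulate their amount were read beside the subunits, each list against the 30.9% called among all tested genes. Of 29 genes named from these lists as called, 8 kept their call in every alternative except that with no filter on low values: Cox18, Sco2, Trmt10c, Fastkd3, Esrrg, Ppargc1b, Park2 and Sqrdl. Of these 8 only Fastkd3 and Park2 were also called with no filter. Coa5, Coq2, Mgme1, Peo1, Sco1, Sdhaf2, Sirt1, Timmdc1 and Tmem70, all higher as deposited, were called neither with TMM factors nor with medians equalised. With no filter 22 of the 29 lost their call. With the library-set term, which leaves 1 control library, 21 were not called.

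Of 21 tested assembly factors of complex IV, 4 were higher, 0 lower and 17 not called (2 lower at an unadjusted p under 0.05, and 1 lower by voom), with a median of 0.02. Cox18, which inserts a domain of the mitochondrial subunit II into the inner membrane, went from 13.1, 11.1 and 8.27 CPM in DMSO to 22.4, 21.3 and 23.7 CPM in AA. It rose by 1.01 (SE 0.20, limma adjusted p = 0.00422). Sco2 is a copper chaperone for the same subunit and a known p53 target. It was listed at 0, 0 and 1.63 CPM in DMSO and 7.07, 5.39 and 6.32 CPM in AA (limma adjusted p = 0.00115). The values of 0 came from the deepest libraries, DMSO replicates 1 and 2, with 23896026 and 31136251 reads against 15958557 in replicate 3. In those same libraries the copy of mt-Nd3 was large. Whether reads of Sco2 were assigned alike in all libraries was not tested, so the size of its rise is uncertain. Coa5 and Sco1, also needed for complex IV assembly, rose by 0.60 and 0.54.

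Of 15 tested complex I assembly factors, 1 was higher (Timmdc1, log2 fold change 0.56), 2 were lower and 12 were not called. Those lower were Nubpl, which delivers iron-sulfur clusters to complex I, at 16.8, 15.9 and 14.2 CPM against 4.43, 9.49 and 9.41 CPM, and Ecsit (log2 fold changes -0.98 and -0.57, limma adjusted p = 0.0188 and 0.0117). Among 10 factors of complexes II and III the 1 called gene was Sdhaf2, which adds the flavin to Sdha (0.56), and among 5 genes of complex V it was Tmem70 (0.56), an assembly factor of ATP synthase. Both were higher.

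Of 33 tested genes for mitochondrial DNA and RNA maintenance, 4 were higher, 1 was lower and 28 were not called. Trmt10c, a subunit of the enzyme that cuts the 5′ ends of tRNAs out of the long mitochondrial transcripts, went from 20.2, 17.2 and 20.49 CPM in DMSO to 37.3, 44.2 and 64.5 CPM in AA and rose by 1.26 (SE 0.20, limma adjusted p = 0.0014). Fastkd3, a mitochondrial RNA-binding protein, rose by 1.10, and Mgme1 and Peo1, a nuclease and the helicase of mitochondrial DNA replication, by 0.68 and 0.58. Lrpprc, which stabilises the messages of the heavy-strand genes, was at 188, 186 and 168 CPM against 137, 149 and 118 CPM. Lrpprc fell by 0.43 (SE 0.13, limma adjusted p = 0.0340), but its adjusted p was 0.317 with the library-set term (1 control library), 0.108 with no filter, 0.0808 with no variance trend and 0.0657 to 0.145 when AA replicate 1, AA replicate 3, DMSO replicate 1 or DMSO replicate 2 was left out. Tfam, which packages mitochondrial DNA and helps start its transcription, differed by 0.11 (limma adjusted p = 0.666). Polrmt, the mitochondrial RNA polymerase, differed by -0.45 (limma adjusted p = 0.0921).

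Of 16 regulators of mitochondrial biogenesis, 6 were higher and 4 lower, 62.5% of the list. Esrrg, a nuclear receptor that drives respiratory genes, was at 102, 85.8 and 89.0 CPM in DMSO and 28.2, 57.9 and 28.6 CPM in AA, without overlap, and fell by 1.33 (SE 0.24, limma adjusted p = 0.00257). Ppargc1b, the coactivator PGC-1 beta, was at 24.6, 40.5 and 35.8 CPM against 14.4, 13.8 and 12.6 CPM and fell by 1.22 (SE 0.20, limma adjusted p = 0.00163). Pprc1, a related coactivator, and Gabpb1, a subunit of the factor GABP, rose by 1.11 and 1.05. Ppargc1a, the coactivator PGC-1 alpha, was at 51.0, 41.9 and 40.04 CPM against 39.6, 76.2 and 37.0 CPM, with AA replicate 2 the highest of all, and was not called. Sirt1, a deacetylase of PGC-1 alpha, rose by 0.70, and Ppara, a receptor for fatty acids, fell by 0.55.

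**Figure D5:**
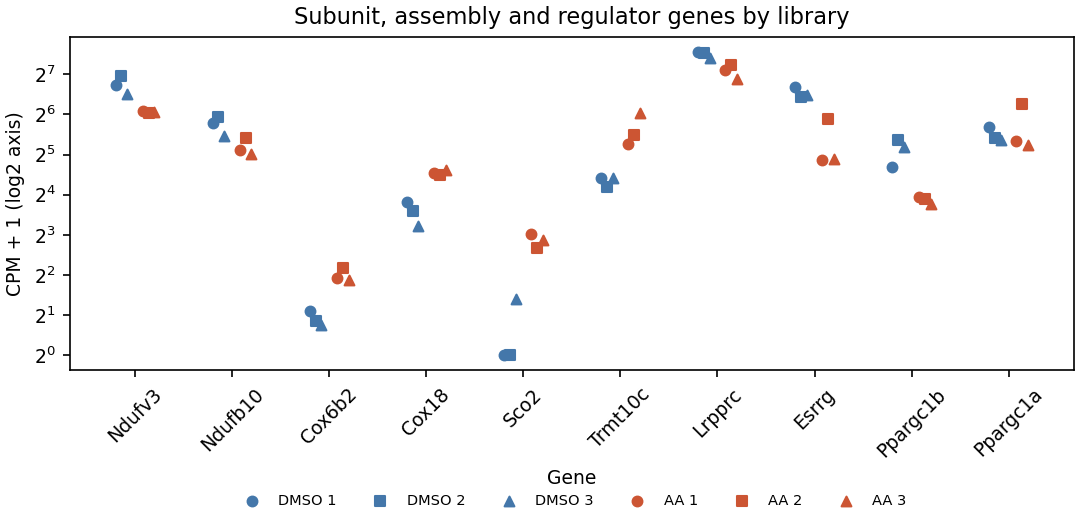
CPM + 1 (vertical axis, log2 scale) of 3 called nuclear subunit genes, 4 genes of assembly or mitochondrial RNA and 3 regulators (horizontal axis), with 1 point per library. AA and DMSO do not overlap for the first 9 genes, among them Ndufv3 at 64.7 to 66.9 CPM in AA, and overlap for Ppargc1a.

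Other parts of mitochondrial energy metabolism differed in how many genes were called. Of 14 tested enzymes of the tricarboxylic acid cycle limma and voom called 0, with 1 higher and 0 lower at an unadjusted p under 0.05. Of 19 electron carrier and dehydrogenase genes, 2 were higher and 3 lower. Of those, Pdss1 and Pdss2, which make the tail of ubiquinone, fell by 0.69 and 0.93, Adck3, also of ubiquinone synthesis, fell by 0.70, Coq2, which joins the tail to the ring, rose by 0.57, and Sqrdl, a sulfide dehydrogenase that feeds ubiquinone, rose by 0.78. Cycs, cytochrome c, differed by 0.09. Among 9 genes of mitochondrial carriers and ATP delivery, Ckmt1, a mitochondrial creatine kinase, rose by 1.75, Slc25a42, a coenzyme A carrier, fell by 0.67, and Slc25a4, an ADP/ATP carrier, differed by 0.19 and was not called. Of 13 genes of mitophagy and of fission or fusion 0 were higher (1 at an unadjusted p under 0.05, 0 by voom) and 2 lower (1 by voom). Park2, the ubiquitin ligase parkin, fell by 1.81. Opa1, an inner membrane fusion protein, differed by -0.38 and was called as deposited, but not by voom (adjusted p = 0.0503), with robust variance, with no variance trend, with no filter, with the replicate block or without any 1 of the 6 libraries.

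The promoters of the nuclear subunit genes were searched for motifs of factors known for respiratory genes, in the 250 bases before the RefSeq start (GRCm38.p6), on both strands. Promoters matched for 66 of the 85 nuclear members. The NRF1 motif GCGCATGCG was in 6 of them (9.09%), against 2.13% of 16515 promoters of the same length and 3.03% of those of tested genes. The ETS motif CCGGAAGT, bound by GABP, was in 3 (4.55%), against 4.09% of the promoters of the same length and 5.71% of those of tested genes, so the members' share lay between these. The YY1 motif AAGATGGCG was in 0, against 0.739% and 1.09%. At shares this low, a count of 0 among 66 promoters cannot show a difference. A match is a description of letters and not a site. Examples are shown 5′ to 3′ on the gene's strand, with the match in capitals, from a promoter of each of 3 complexes.
Atp5g2, chr15:102671066-102671104: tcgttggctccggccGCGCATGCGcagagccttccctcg
Cox6a1, chr5:115349097-115349135: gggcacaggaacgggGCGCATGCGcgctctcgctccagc
Ndufa11, chr17:56717687-56717725: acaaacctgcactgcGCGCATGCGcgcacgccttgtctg

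Atp5g2 and Cox6a1 are on the minus strand and Ndufa11 on the plus strand. These genes differed by -0.31 (without copies), -0.22 and -0.02 between AA and DMSO, and the other 3 with an NRF1 match, Atp5k, Atp5l and Ndufa8, by -0.22, -0.01 and 0.05. None of the 6 was called. The 9-base motif can match itself in reverse with a shift of 1 base, and such double matches were counted once per promoter.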

How the data were processed

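RNA of 6 libraries, 3 per group, was sequenced after TruSeq Stranded mRNA preparation, per the labels' protocols. Per the submitters' processing notes, bcl2fastq 2.19, kallisto (version and role not given) and build mm10 were used. The annotation, the counting of genes and its strand setting were not found in the labels or headers. A single table of log10 values was deposited, which the values themselves show to be log10(CPM + 1), although a log2 scale had been assumed in planning. They were turned back to CPM, whole reads were recovered (100% within 0.1 read), and log2(CPM + 1) was tested with limma 3.58.1 in R 4.3.3: variance trend, two-sided, Benjamini-Hochberg over the 14311 genes that reached 1 CPM in 3 or more libraries, called under 0.05. Fold changes are on that scale, which understates low genes. SE is the moderated standard error. The test was checked on simulated data in which as many genes were raised as lowered. That check held no difference between library sets, so it does not cover the dependence on scaling and library sets described below.

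Copies were found with blastn 2.17.0 against GENCODE M21 pseudogenes, and 97 of 98 members matched the annotation by symbol. Promoters came from RefSeq. The members, lists and tests were chosen with earlier results of these data known. Genes named are all mitochondrial genes, catalytic subunits and tissue isoforms, the highest and up to 4 called nuclear genes per direction and complex, up to 3 called genes per direction of each list (the highest where none), and Ppargc1a, Tfam, Polrmt, Cycs and Slc25a4; some genes of this rule are not reported here. The following were named after their values were seen: Uqcr10, Uqcrc2, Ndufb6, Atp5s, Sco1, Peo1, the genes with copies or motifs, and those called only in an alternative. Alternatives were other scalings (TMM, own implementation), filters, pseudocounts, variance models, a replicate block, a library-set term and left-out libraries. Added after seeing the data were voom, added copies and shares of mitochondrial reads. All tests have 3 libraries a group.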

Additional observations from a re-analysis of the deposited data

How the results depend on the processing

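The number of called nuclear members, 3 as deposited, was 8 with TMM factors, 11 with library medians equalised, 6 after quantile normalization, 1 (Ndufb6, higher) when the library-set term was fitted, which compares AA with DMSO replicate 3 alone, and 0 when low values were not filtered (where 1375 of 32544 genes were called), and 2 to 5 when 1 library was left out, with 5 without DMSO replicate 3. Besides Ndufv3 and Ndufb10, the lower calls with TMM factors were Atp5o, Atp5sl, Cox7c, Ndufs4 and Ndufs8, and with medians equalised also Ndufa13, Ndufb7 and Ndufs6. The nuclear median moved to -0.21 and -0.26 under these scalings, and from -0.12 to 0.05 when 1 library was left out. Apart from Ndufb6, the higher calls not made as deposited were Cox4i1 after quantile normalization and Cox7a2l without DMSO replicate 3. The number of called mitochondrial members, 2 as deposited, was 4 with TMM factors, array weights, medians equalised, the library-set term, voom and as shares of mitochondrial reads, where it was mt-Cytb, mt-Nd4l, mt-Nd5 and mt-Nd6 each time. It was 1 with robust variance, 0 with no filter, and 1 to 4 when 1 library was left out, with 1 without AA replicate 2 or 3 and 4 without AA replicate 1 or DMSO replicate 2. Their median stayed below 0 in all settings run. Apart from the library-set term, it ran from -0.88 without DMSO replicate 2 to -0.03 as shares without mt-Co1. With the library-set term it was -0.96, a value that rests on DMSO replicate 3, the library with the highest mitochondrial share. With each library left out the log2 ratio of mitochondrial to nuclear sums ran from -0.65 to 0.13. The share of higher calls among all genes was 72.0% as deposited, 39.9% with medians equalised, 46.7% after quantile normalization and 47.4% with TMM factors. The causes were not tested. No named gene was called in the opposite direction in any setting. Same-numbered libraries of the groups did not deviate together (correlations -0.11, -0.16 and -0.02), and the other combinations gave -0.07 to 0.19. Deviations were taken from means of 3 libraries, so these values cannot decide whether the numbers pair the libraries. A replicate block left 3 nuclear and 2 mitochondrial members called, and 3813 rather than 4426 of all genes. The planned edgeR test was not run, because the deposited values are logarithms of CPM, and voom on recovered reads took its place. Depth limits the tissue isoforms with under 1 CPM, and the spread of the mitochondrial share limits the mitochondrial genes.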
